A study of Mus musculus with 6 samples.

Results

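The MYC, MAX and MXD network was followed at the transcript level in 6 mouse BCR-ABL positive cell lines. The 10 members were the rows of the deposited count table, out of 25965, whose symbol was Myc, Mycn, Max, Mlx, Mga, Mxd1, Mxd3, Mxd4, Mxi1 or Mnt. The network was selected on the Mxd4 counts, which were already known to be higher in every Cdk6 knockout line than in the wild-type lines, so the Mxd4 difference is described here without a test. The other 9 members entered by family and not by their values.

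The tested group held 3 lines labelled Cdk6 knock out (KO1, KO2 and KO3), which per the labels received a Cas9 plasmid with guides against CDK6. That plasmid is labelled hCDK6del although the cells are mouse, and the guide sequences were not used here. The other group held 3 lines labelled Cdk6 wild type (WT1, WT2 and WT3), which had received the control plasmid. All 6 lines carry BCR-ABL, the fusion kinase of the Philadelphia chromosome, and they were grown in RPMI medium with serum. Per the labels' protocols, single sorted cells were grown out into clones and loss of the protein was checked by Western blot, so each line may stand for 1 clone. The labels do not say that the lines of a group came from separate starting cultures, so p-values measure only the spread between these lines.

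MYC and its paralog MYCN are basic helix-loop-helix leucine zipper factors that bind E-box DNA and activate growth genes as heterodimers with MAX. MXD1, MXI1, MXD3 and MXD4, the MXD proteins, and the larger MNT compete for MAX and recruit SIN3 corepressors with histone deacetylases to the same sites. MLX is a second dimerization partner that also serves MXD1, MXD4, MNT and the glucose-sensing Mondo factors, and MGA brings MAX into a Polycomb complex. In developing B cells the network is known for coupling growth and division to cytokine and pre-B cell receptor signals.

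The sequence before the start site of Mxd4 is shown first, because Mxd4 is the member on which the network was chosen. RefSeq promoter sequences (build GRCm38.p6) were matched for 9 of the 10 members by symbol, with Myc not among them, and were searched on both strands. The 250 bases before the Mxd4 start (chr5:34187711-34187960, minus strand) are printed 5′ to 3′, with the only match to any motif searched, the palindromic MYC and MAX E-box CACGTG, in capitals.
Mxd4: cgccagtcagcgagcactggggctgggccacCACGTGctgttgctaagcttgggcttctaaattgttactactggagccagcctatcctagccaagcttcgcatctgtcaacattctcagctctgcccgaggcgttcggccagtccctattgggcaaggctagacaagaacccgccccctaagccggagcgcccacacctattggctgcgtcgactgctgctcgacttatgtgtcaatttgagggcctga

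The same 6 letters occurred in the windows of 3 other members, shown as 30-base stretches so that the flanks can be compared. They lay at chr11:74830789-74830818 on the plus strand for Mnt, chr11:101087238-101087267 on the plus strand for Mlx and chr12:76962234-76962263 on the minus strand for Max. The Mlx and Max stretches lay inside the annotated gene spans, which begin at 101086707 for Mlx and at 76962323 for Max. That of Mnt spanned the gene start at 74830806.
Mxd4: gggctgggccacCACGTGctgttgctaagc
Mnt: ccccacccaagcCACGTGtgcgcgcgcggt
Mlx: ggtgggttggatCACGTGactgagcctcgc
Max: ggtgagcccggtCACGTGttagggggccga

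Over all 32851 RefSeq promoter windows of the same length, from 250 bases before to 50 after the start, 7.15% held CACGTG. Counted by gene, as the members are here, the share was 8.09% of 27025 genes. The 9 members had 11 windows. The variant CACGCG, in 9.27% of windows, occurred in that of Mga. This stretch, chr2:119897195-119897224, lay inside the Mga gene span, which begins at 119872503. The E2F motifs TTTGGCGC and TTTCGCGC, in 0.514% and 0.323% of windows, overlapped each other before Mycn, while TTTCCCGC, in 1.07% of windows, was found in no member. The FOXO motif GTAAACA, in 3.65% of windows, occurred in 1 of the Mxi1 windows, also inside the gene span. The STAT motif TTCNNNGAA, in 8.30%, occurred in none of the members. A match is a description of the letters and no evidence of binding.

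Total counts ran from 17859519 to 24108563 per library, and 3 counts corresponded to between 0.125 and 0.165 CPM. Every member lay far above that level, with 145 to 11953 counts in each library. CPM here is the read count scaled to a common library total after TMM adjustment, by factors that lay between 0.968 and 1.036. Libraries of a group differed by more than counting noise, with a chi-square per gene from 6.08 for WT1 and WT3 to 147 for KO2 and KO3. KO2 stood apart, at 112 on the first principal component of log2 CPM against 12.6 for WT2 and -38.4 to -28.3 for the other 4 libraries. Of 12 early B cell markers 12 were above 1 CPM in every library, with summed levels of 4133 to 5152 CPM in KO and 4579 to 4777 CPM in WT. Myeloid markers summed to 20.3 to 105 CPM in KO and 41.4 to 46.9 CPM in WT, with Elane, Ly6g and Cebpa at 0, and T cell markers to 5.07 to 81.2 CPM in KO and 65.1 to 70.2 CPM in WT, with Cd3e, Cd4, Cd8a and Bcl11b at 0. Markers of erythroid cells and megakaryocytes summed to 2.00 to 9.23 CPM in KO and 4.90 to 6.58 CPM in WT, with Hba-a2 at 0, and those of fibroblasts to at most 0.549 CPM in KO and 0.106 CPM in WT, with Col1a2, Col3a1, Dcn and Lum at 0. The part of these markers in the results below was not tested. Since these are bulk samples, a lower level cannot be told apart from fewer cells that carry the transcript.

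The targeted transcript, Cdk6, had 41.3, 75.0 and 39.0 CPM in KO1, KO2 and KO3, against 39.7, 45.6 and 55.9 CPM in WT1, WT2 and WT3. The means were 51.8 ± 20.2 CPM in KO and 47.1 ± 8.19 CPM in WT (SD, n = 3 each), and a two-sided exact permutation test of log2 CPM gave p = 0.9. With 3 libraries a group that test cannot go below 0.1. Counts over a whole gene do not read a small deletion or a frameshift, so they do not check the genotype. KO and WT therefore name the libraries as labelled, also wherever a direction is given.

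Mxd4 encodes a small MAX-binding repressor associated with cells that leave proliferation, and it lies on chromosome 5 (GRCm38, 34176580 to 34187710, minus strand). It had 102, 129 and 65.1 CPM in KO1, KO2 and KO3, against 24.5, 28.3 and 26.8 CPM in WT1, WT2 and WT3. The lowest KO library was more than 2 times the highest WT library, and KO3 lay well under KO1 and KO2. Against the WT mean, the ratio was 3.85 in KO1, 4.85 in KO2 and 2.46 in KO3. The means were 98.6 ± 31.9 CPM in KO and 26.5 ± 1.88 CPM in WT (SD, n = 3 each), a log2 fold change of 1.90 ± 0.26 (SE). Without KO2 and WT2 the log2 fold change was 1.71 ± 0.24 (SE). In GENCODE, 514 exonic bases of Mxd4 overlap the antisense gene Gm42846, which has no row of its own in the table. Since the strand setting of the counting is not given in the sources used here, reads of that gene cannot be told apart there.

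**Figure D1:**
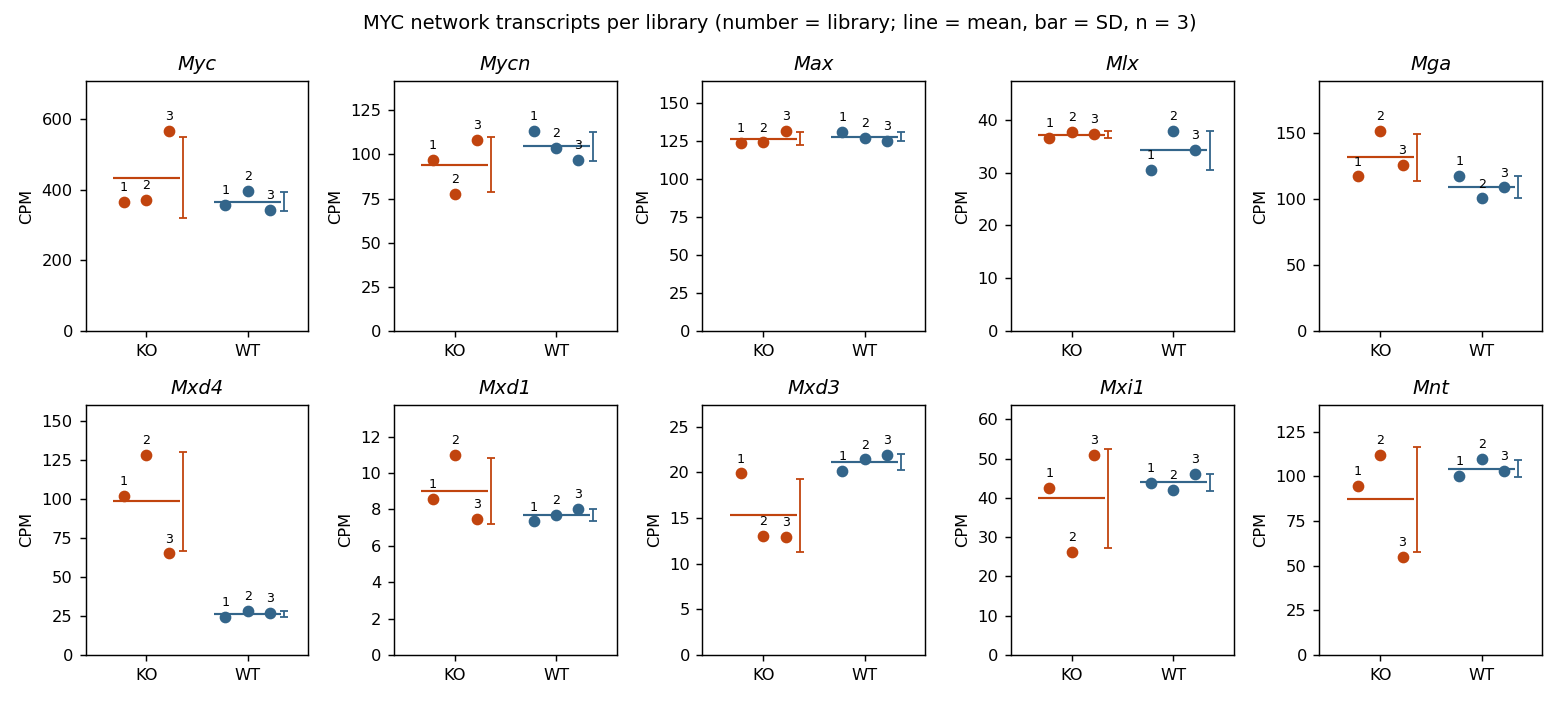
CPM of each network member in every library, with KO left of WT in each panel. Each point is 1 library, with its number above it, the horizontal line is the mean and the bar beside it the SD (n = 3). Mxd4 separates the groups widely and Mxd3 by a narrow gap, and the other 8 panels overlap. KO3 is the high Myc library and the low Mnt library.

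None of the other 9 members passed edgeR's quasi-likelihood test of KO against WT, with Benjamini-Hochberg adjusted p from 0.534 to 0.954. The background in that test was 0% of 10896 tested genes. At an unadjusted p under 0.05, reached by 9.45% of tested genes in edgeR, the count was 0 of 9 in edgeR. It was 2 of 9 in DESeq2 (Mga and Mxd3), where 11.8% of these genes reached it, and 1 of 9 in limma-voom, where 9.55% did. No adjusted p of the 9 passed in DESeq2 or limma-voom. The groups did not overlap for 2 of the 10 members, Mxd4 with all KO above and Mxd3 with all KO below, while over all tested genes 8.53% had all KO above and 11% all KO below, 19.6% together. These shares are printed beside the counts only, since the same contrast chose Mxd4.

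Among the other MXD genes, Mxd3, whose product is known to be most abundant in dividing cells, had 19.9, 13.0 and 13.0 CPM in KO1, KO2 and KO3, against 20.2, 21.4 and 21.9 CPM in WT1, WT2 and WT3. KO2 and KO3 were low, whereas KO1 lay just under WT1. The means were 15.3 ± 3.98 CPM in KO and 21.2 ± 0.886 CPM in WT, a log2 fold change of -0.47 ± 0.20 (SE, n = 3 each, edgeR adjusted p = 0.534). Without KO2 and WT2 it was -0.36. The gene shares 105 exonic bases with Prelid1 on the opposite strand, so some of its reads may belong to that gene, which had 2065 to 5847 counts per library.

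Mxi1, a MAX-interacting repressor broadly present in tissues, had 42.6, 26.1 and 51.0 CPM in KO1, KO2 and KO3, against 43.8, 41.9 and 46.1 CPM in WT1, WT2 and WT3. Only KO2 was low, and KO3 was the highest library. The means were 39.9 ± 12.6 CPM in KO and 43.9 ± 2.11 CPM in WT, and the log2 fold change of -0.14 ± 0.25 (SE, n = 3 each, edgeR adjusted p = 0.878) became 0.10 without KO2.

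Mxd1, the founding MXD repressor, known in differentiating blood cells, was the scarcest member. It had 8.57, 11.0 and 7.47 CPM in KO1, KO2 and KO3, against 7.34, 7.72 and 8.02 CPM in WT1, WT2 and WT3. Its groups overlapped, with KO2 the highest library. The means were 9.02 ± 1.81 CPM in KO and 7.69 ± 0.337 CPM in WT, with a log2 fold change of 0.23 ± 0.20 (SE, n = 3 each, edgeR adjusted p = 0.745), which was 0.06 without KO2 and 0.35 without KO3.

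Mnt encodes the large MAX-binding repressor that is present in both resting and dividing cells. It had 94.8, 112 and 54.7 CPM in KO1, KO2 and KO3, against 100, 110 and 103 CPM in WT1, WT2 and WT3. KO3 held 0.525 times the WT mean, while KO1 and KO2 lay at 0.910 and 1.08 times. The means were 87.2 ± 29.5 CPM in KO and 104 ± 4.87 CPM in WT, with a log2 fold change of -0.26 ± 0.26 (SE, n = 3 each, edgeR adjusted p = 0.784), which was -0.01 without KO3 and -0.48 without KO2.

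Myc, the activator at the centre of the network, had 365, 370 and 565 CPM in KO1, KO2 and KO3, against 358, 396 and 344 CPM in WT1, WT2 and WT3. KO1 and KO2 lay inside the WT range, and KO3 held 1.55 times the WT mean. The means were 434 ± 114 CPM in KO and 366 ± 27.0 CPM in WT, with a log2 fold change of 0.25 ± 0.19 (SE, n = 3 each, edgeR adjusted p = 0.704), which was 0.01 without KO3. KO3 was thus the library with the most Myc, the least Mnt and, among the KO lines, the least Mxd4.

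Mycn, the paralog of Myc known from neural and early B cell precursors, was transcribed in every library. It had 96.7, 77.5 and 108 CPM in KO1, KO2 and KO3, against 113, 103 and 96.9 CPM in WT1, WT2 and WT3. KO2 was the lowest library, and the groups overlapped. The means were 94.1 ± 15.5 CPM in KO and 105 ± 8.19 CPM in WT, with a log2 fold change of -0.15 ± 0.14 (SE, n = 3 each, edgeR adjusted p = 0.757), which was -0.02 without KO2, -0.09 without WT1 and -0.26 without KO3.

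Max, the shared partner, had 124, 124 and 132 CPM in KO1, KO2 and KO3, against 131, 127 and 125 CPM in WT1, WT2 and WT3. All 6 libraries stood within a narrow band, and the groups overlapped. Its log2 fold change of -0.01 had a 95% interval from -0.16 to 0.13 (edgeR adjusted p = 0.954), the narrowest interval of the 10 members.

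Mlx, the partner of the Mondo factors, had 36.5, 37.7 and 37.3 CPM in KO1, KO2 and KO3, against 30.5, 37.9 and 34.3 CPM in WT1, WT2 and WT3. WT1 was low and WT2 lay above all KO libraries, so the groups overlapped (log2 fold change 0.12 ± 0.11 SE, n = 3 each, edgeR adjusted p = 0.741), and the value was 0.05 without WT1 and 0.20 without WT2. It shares 385 exonic bases with Psmc3ip on the opposite strand, which had 285 to 599 counts per library.

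Mga, the large MAX partner with a T-box domain, had 117, 151 and 126 CPM in KO1, KO2 and KO3, against 117, 100 and 109 CPM in WT1, WT2 and WT3. KO2 was the highest library and KO1 lay level with WT1. The log2 fold change was 0.27 ± 0.12 (SE, n = 3 each, edgeR adjusted p = 0.534), and it was 0.16 without KO2 and 0.11 without KO2 and WT2.

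**Figure D2:**
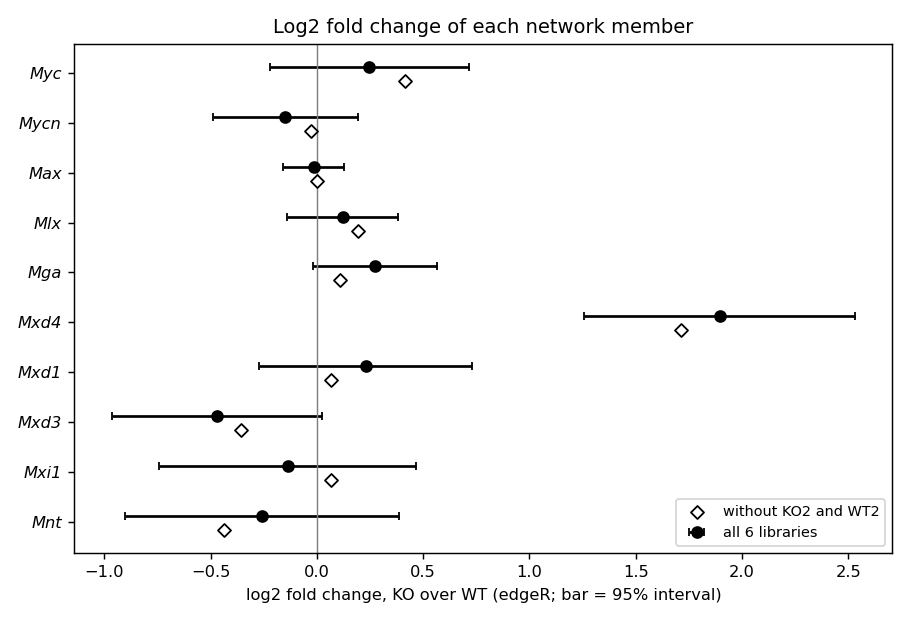
Log2 fold change of KO over WT for each member. Filled points are the edgeR estimates over all 6 libraries with their 95% intervals, and open diamonds are the estimates without KO2 and WT2. Mxd4 lies at 1.90 and at 1.71 without KO2 and WT2. Its interval is drawn as a description and not as a test, since Mxd4 chose the network. The intervals of the other 9 members include 0.

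The KO lines differed more among themselves than the WT lines did. The SD of log2 CPM ran from 0.02 to 0.54 in KO and from 0.03 to 0.16 in WT, and it was larger in KO for 9 of the 10 members, Mlx being the exception. This was not particular to the network, since it held for 83.1% of all tested genes, and for 71.9% without KO2 and WT2. No WT value lay more than 1.12 times from its WT mean. Of the 27 KO values of the members other than Mxd4, 5 lay more than 1.5 times from the WT mean: Myc and Mnt in KO3, Mxi1 in KO2, and Mxd3 in KO2 and KO3. Over all tested genes this distance was passed by 11.3% in KO1, 29.1% in KO2 and 15.5% in KO3.

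Levels were compared between members only after division by the length of the longest GENCODE protein-coding transcript. Myc was the most abundant member, at 185 ± 48.7 CPM per kb in KO and 156 ± 11.5 CPM per kb in WT (SD, n = 3 each), followed by Max at 65.2 ± 2.24 in KO and 65.9 ± 1.56 in WT, on the same scale. Mycn followed, at 35.2 ± 5.79 CPM per kb in KO and 39.1 ± 3.06 in WT. Mxd4 had rank 4 of 10 in KO, at 25.5 ± 8.23 CPM per kb, and rank 9 in WT, at 6.85 ± 0.486, above Mxd1 only. In KO the ranges of neighbours from Mycn to Mlx overlapped (Mycn, Mxd4, Mnt and Mlx), and so did those from Mxd3 to Mxi1 (Mxd3, Mga and Mxi1). In WT the order from Mnt was Mnt, Mlx, Mxd3, Mxi1, Mga, Mxd4 and Mxd1, where Mlx and Mxd3 overlapped, as did Mxi1 with Mga and Mga with Mxd4. With the length of all exons in place of 1 transcript, Mxd4 had rank 6 in KO and rank 9 in WT.

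The makeup of the MXD transcripts differed by line. Mxd4 made up 51.1%, 65.7% and 43.9% of the summed CPM per kb of the 4 MXD genes in KO1, KO2 and KO3, against 19.9%, 21.9% and 20.2% in WT1, WT2 and WT3. Mxd3 was the leading MXD transcript in each WT library, at 47.8% to 48.3%, and made up 29.0%, 19.4% and 25.5% in KO1, KO2 and KO3. The MXD sum was 51.7, 50.5 and 38.3 CPM per kb in KO1, KO2 and KO3, against 31.8, 33.4 and 34.3 in WT1, WT2 and WT3. Without Mxd4 the sum was 25.3, 17.3 and 21.5 CPM per kb in KO1, KO2 and KO3, against 25.5, 26.1 and 27.4 in WT1, WT2 and WT3, so the higher KO sums came with Mxd4. Myc stood at 2.16, 2.11 and 4.81 times the sum of the MXD genes and Mnt in KO1, KO2 and KO3, against 2.85, 2.95 and 2.59 times in WT1, WT2 and WT3. KO3 lay above the WT lines in this ratio and KO1 and KO2 below them. With the length of all exons the Mxd4 share was 43.2%, 58.2% and 35.4% in KO1, KO2 and KO3, against 15.3% to 17.0% in WT. Shares and sums that contain Mxd4 carry the difference on which the network was chosen and are descriptions.

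**Figure D3:**
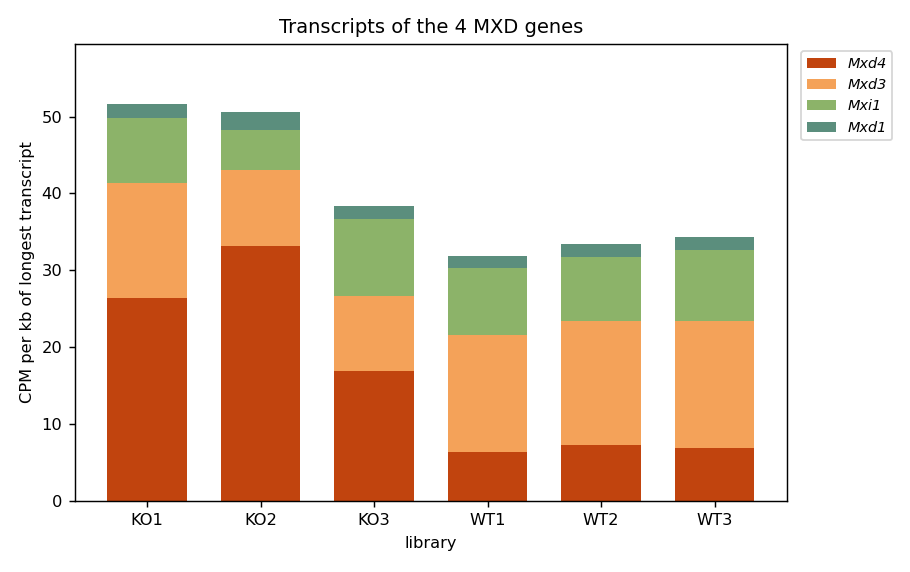
Stacked transcript levels of the 4 MXD genes in each library, in CPM per kb of the longest transcript, with the KO libraries left of the WT libraries. Mxd4 takes 43.9% to 65.7% of the stack in KO and 19.9% to 21.9% in WT, while the stack without Mxd4 is no taller in KO than in WT.

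The known targets of the network were read as lists beside all tested genes, whose median log2 fold change was 0.015. Of all tested genes, 5148 of 10896 had a negative value. Of the genes known to be activated by MYC, 33 of 38 had a negative log2 fold change, and their median was -0.16. In 17 of the 38 every KO value lay below every WT value, as in 11% of all tested genes, and in 0 every KO value lay above. None of them passed edgeR, where 0% of all genes passed, or limma-voom, 11 had an unadjusted edgeR p under 0.05, as 9.45% of all tested genes did, and 1, the nucleolar factor Nolc1, passed DESeq2 with a lower value in KO, as 1.24% of genes with an adjusted p did in that direction and 1.94% in either direction. The list had a median deviation from the WT mean of -0.15, -0.13 and -0.14 in KO1, KO2 and KO3. In WT1, WT2 and WT3 it was -0.01, 0.02 and -0.01. A link between these values and the Myc level of each line was not tested. Without KO2 and WT2 the median was -0.14, with 34 of 38 negative.

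The 3 members of that list with the smallest edgeR p were Hspe1, Prmt1 and Cad. Hspe1, a mitochondrial co-chaperonin, had 57.1, 49.9 and 62.2 CPM in KO1, KO2 and KO3, against 71.4, 77.3 and 71.6 CPM in WT1, WT2 and WT3 (log2 fold change -0.38 ± 0.10 SE, edgeR adjusted p = 0.479). Prmt1, an arginine methyltransferase, had 411, 330 and 390 CPM in KO1, KO2 and KO3, against 467, 473 and 465 CPM in WT1, WT2 and WT3 (-0.31 ± 0.09, edgeR adjusted p = 0.482). Cad, which starts pyrimidine synthesis, had a log2 fold change of -0.18 ± 0.05 (edgeR adjusted p = 0.492). Nolc1 averaged 578 ± 10.9 CPM in KO and 647 ± 10.4 CPM in WT (SD, n = 3 each, log2 fold change -0.16 ± 0.05 SE, edgeR adjusted p = 0.495, DESeq2 adjusted p = 0.0306). In these 4 genes each KO library was lower than each WT library. Of the 5 list members with a positive value, the cyclin gene Ccnd2 had the largest, at 0.70 (edgeR adjusted p = 0.592). It had 418, 1017 and 485 CPM in KO1, KO2 and KO3, against 354, 484 and 342 CPM in the WT lines of the same numbers, so the groups overlapped, and the log2 fold change was 0.20 without KO2.

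Genes listed as repressed by MYC gave no common direction, with 6 of 10 tested genes positive and a median of 0.36, which turned to -0.35 without KO2 and WT2. The list includes H19, although its repression by MYC is not established. H19 was 1 of the 4 negative genes, at -4.29 ± 2.11 (SE, edgeR adjusted p = 0.572), and at -8.24 without KO2 and WT2. The counts and medians given here include H19. Per line, the median deviation from the WT mean came to -0.34, 0.68 and -0.36 in KO1, KO2 and KO3, against -0.19, 0.40 and -0.07 in WT1, WT2 and WT3. None passed edgeR and 2 of 10 passed DESeq2, both lower in KO, as were 1.24% of all genes with an adjusted p. Ndrg1, a stress-response gene, had 3.90, 7.43 and 4.11 CPM in KO1, KO2 and KO3, against 15.7, 14.5 and 24.2 CPM in WT1, WT2 and WT3 (log2 fold change -1.82 ± 0.35 SE, edgeR adjusted p = 0.479, DESeq2 adjusted p = 0.000949). Fth1, the ferritin heavy chain, had 658, 608 and 506 CPM in KO1, KO2 and KO3, against 824, 954 and 813 CPM in WT1, WT2 and WT3 (-0.55 ± 0.12, edgeR adjusted p = 0.479, DESeq2 adjusted p = 0.00698). Cdkn1b, an inhibitor of cyclin-dependent kinases, had 31.0, 50.0 and 40.7 CPM in KO1, KO2 and KO3, against 29.8, 32.0 and 30.7 CPM in WT1, WT2 and WT3, with overlapping groups (0.40 ± 0.18, edgeR adjusted p = 0.553, and 0.23 without KO2). Ndrg1 and Fth1 are also known to be controlled by other factors.

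**Figure D4:**
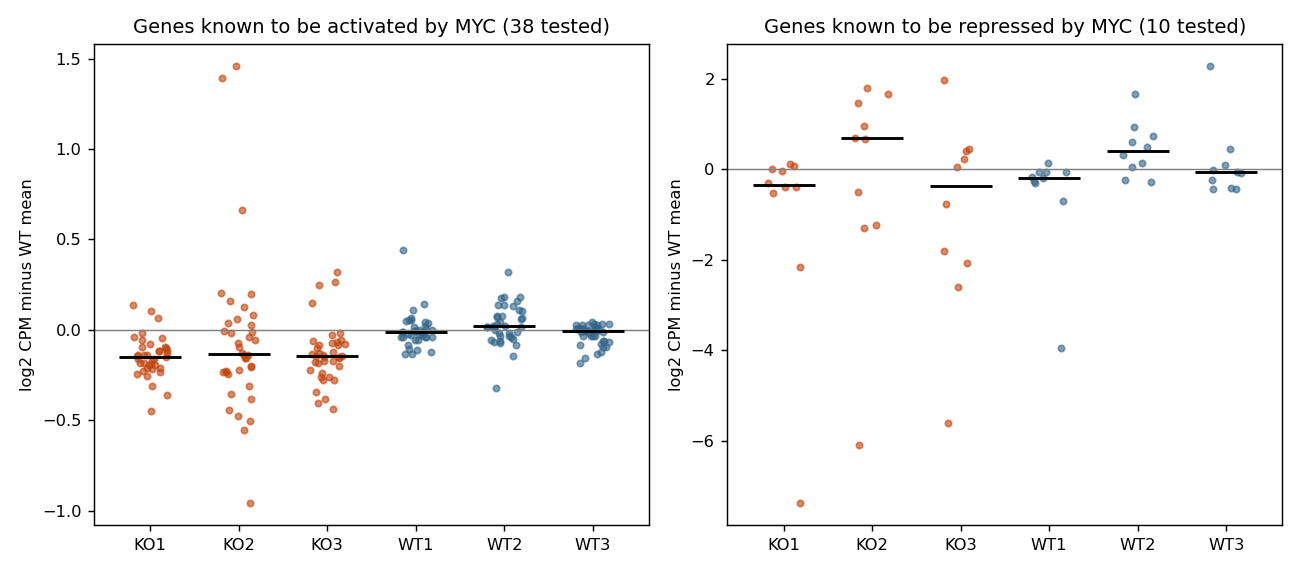
Log2 CPM of each tested gene minus its WT mean, per library, for the genes known to be activated by MYC (left panel) and repressed by MYC (right panel), with the KO libraries left of the WT libraries. Each point is a gene and the black line the median. The right panel includes H19, whose repression by MYC is not established. The activated genes have medians of -0.15 to -0.13 in KO and -0.01 to 0.02 in WT, while KO2 and WT2 have the highest medians of the repressed genes.

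The SIN3 and HDAC corepressors, through which MXD proteins repress, showed a median of -0.10 on the log2 scale. In this list 12 of 17 tested genes were negative, against 5148 of all 10896 tested genes. None passed edgeR, and 2 of 17, both histone-binding subunits, passed DESeq2 with lower values in KO, as 1.24% of all genes with an adjusted p did. Rbbp4 had 513, 527 and 495 CPM in KO1, KO2 and KO3, against 583, 597 and 586 CPM in WT1, WT2 and WT3 (-0.20 ± 0.05 SE, edgeR adjusted p = 0.479, DESeq2 adjusted p = 0.0122). Rbbp7 had 427, 380 and 413 CPM in KO1, KO2 and KO3, against 516, 471 and 495 CPM in WT1, WT2 and WT3 (-0.28 ± 0.07, edgeR adjusted p = 0.479, DESeq2 adjusted p = 0.0403). Both subunits also serve other chromatin complexes. Arid4a, another SIN3-associated subunit, had a positive log2 fold change of 0.35 ± 0.13 (edgeR adjusted p = 0.521).

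The MYC coactivators had a median of -0.05, and 0 passed edgeR or DESeq2. In this list 11 of 14 genes were negative, against 5148 of all 10896 tested genes. The median was -0.12 without KO2 and 0.01 without KO3, and in 4 of the 14 every KO value lay below every WT value, as in 11% of all tested genes. Actl6a, Wdr5 and Ruvbl2 had log2 fold changes of -0.17, -0.20 and -0.17. Regulators of MYC protein turnover had a median of 0.05, which was -0.02 without KO2 and 0.01 without WT2. That list mixes genes that promote and genes that oppose MYC degradation, so its median gives no direction of turnover over these 14 genes. Of these, 0 passed edgeR and 1 of 14 passed DESeq2, the scaffold gene Axin1 (-0.19 ± 0.05 SE, DESeq2 adjusted p = 0.0320), lower in KO as were 1.24% of genes with an adjusted p, while the ubiquitin ligase gene Fbxo28 had a log2 fold change of 0.29. Partners of MGA in the PRC1.6 complex had a median of -0.09 over 11 genes, with Tfdp1 at -0.09 and Yaf2 at 0.21 besides Wdr5. Yaf2 stood at 0.08 without KO2 and 0.11 without WT3, and its groups overlapped. Of 16 germline genes that PRC1.6 is known to silence, 1 was tested, Zcwpw1, with 51.9, 2.46 and 72.4 CPM in KO1, KO2 and KO3, against 40.8, 31.1 and 58.9 CPM in WT1, WT2 and WT3.

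The network partners outside the members had a median of -0.01 over 4 genes, with Mlxip, which encodes MondoA, at 161 ± 6.34 CPM in KO and 155 ± 7.34 CPM in WT (SD, n = 3 each). Zbtb17, the MYC partner MIZ1, and Usf2, another E-box factor, had log2 fold changes of -0.07 and -0.11. Genes known to be activated by MondoA and ChREBP had a median of 0.21 over 6 genes, which was 0.02 without KO2 and 0.03 without KO2 and WT2. Among them Arrdc3 had 79.0, 111 and 26.6 CPM in KO1, KO2 and KO3, against 56.9, 57.6 and 56.2 CPM in WT1, WT2 and WT3: KO3 was low and KO2 high. Dak (now Tkfc) and Klf10 had log2 fold changes of 0.21 and 0.60 (edgeR adjusted p = 0.684 and 0.745), and in both the groups overlapped. Klf10 stood at 17.2 CPM in KO2 and at 4.89 to 7.83 CPM in the other 5 libraries, and its log2 fold change was -0.16 without KO2. That of Dak was 0.34 without KO2 and 0.13 without KO3. No gene of these lists passed edgeR or DESeq2.

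Other basic helix-loop-helix factors that bind E-boxes or sequester those that do had a median of 0.12 over 14 genes, which was -0.05 without KO2, 0.03 without KO3 and -0.06 without KO2 and WT2. DESeq2 gave no adjusted p for Bhlhe41 and Id2, so these could not pass it. Of the 14 genes, 1 passed DESeq2. This was Hes1, a repressor downstream of Notch, with 2.91, 6.76 and 4.44 CPM in KO1, KO2 and KO3, against 0.793, 0.426 and 0.445 CPM in WT1, WT2 and WT3 (3.06 ± 0.47 SE, edgeR adjusted p = 0.479, DESeq2 adjusted p = 5.62e-05, higher in KO as were 0.705% of genes with an adjusted p). Its WT values stand near the level of 3 counts, 0.125 to 0.165 CPM, so the size of this fold change rests on few WT reads. Tfe3, a lysosomal gene regulator, and Srebf1, a lipid synthesis regulator, had log2 fold changes of 0.35 and -0.21, which were 0.20 without KO3 for Tfe3 and -0.10 without WT2 for Srebf1. At an unadjusted edgeR p under 0.05 there were 3 of 17 corepressors, 3 of 14 coactivators and 2 of 14 turnover genes. In the PRC1.6 list it was 1 of 11, Wdr5, which was also 1 of those 3 coactivators. There were also 2 of 10 genes repressed by MYC, 1 of 14 E-box factors and the 11 of 38 genes activated by MYC given above. None of the network partners, MondoA targets or germline genes reached it. The share over all tested genes was 9.45%, and limma-voom called 0 in every list.

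Among the tested genes most like Mxd4 over the 6 libraries, by Pearson correlation of log2 CPM, were C130022K22Rik (r = 0.988), Asb8 (0.983), Pydc4 (0.981) and Trip4 (0.980). These values describe 6 points that fall into the KO and WT groups. Asb8 encodes a SOCS-box protein and Trip4 a transcription coactivator. These 4 genes had smaller differences than Mxd4, the largest being Pydc4, with 7.19, 7.53 and 5.53 CPM in KO1, KO2 and KO3, against 3.63, 3.14 and 3.56 CPM in WT1, WT2 and WT3. C130022K22Rik, Asb8 and Trip4 had log2 fold changes of only 0.18, 0.18 and 0.16, against 1.90 for Mxd4. Among members the likeness to Mxd4 was highest for Mga, at 0.765 (rank 699), and lowest for Mxd3, at -0.690 (rank 8776).

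The genes most like Myc were C2cd2l (r = 0.994), Dem1 (0.993), Hax1 (0.991), Cth (0.990) and Ero1l (0.986), each highest in KO3. The widest difference was that of Cth, the enzyme that makes cysteine from cystathionine, with 15.5, 14.3 and 93.5 CPM in KO1, KO2 and KO3, against 11.9, 24.9 and 11.8 CPM in WT1, WT2 and WT3. Mnt had the lowest correlation with Myc among the members, at -0.913 (rank 9952). These correlations describe 6 points, of which KO3 lies apart from the others in Myc.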

How the data were processed

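RNA of 6 BCR-ABL positive mouse cell lines was sequenced after TruSeq library preparation, per the labels. The authors deposited counts per gene symbol, raw and with 1 column per library. Trim Galore, STAR and DESeq2 with the GRCm38 build are named per the submitters' processing notes. Which program counted reads, over which annotation and whether by strand, is not given in the sources used here, which limits values of overlapping genes. Every column matched 1 sample.

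Counts were fitted with edgeR 4.0.16 in R 4.3.3 (TMM scaling, filterByExpr on genotype, robust quasi-likelihood F test, two-sided, Benjamini-Hochberg adjusted p under 0.05 over 10896 rows). All 10 members passed the low-count filter. Alternatives were RLE factors, library totals, DESeq2 1.42.0, limma-voom (limma 3.58.1), no filter, 1 CPM in 3 libraries, a replicate block, and left-out libraries. DESeq2 gave no adjusted p for 14753 rows. Log2 CPM used a prior count of 2 for correlations and list medians per library. Intervals and the 3-count level cover counting error or spread between libraries only.

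The members and the 10 gene lists were chosen with earlier results of these data known. Of 163 list genes 6 were matched by synonym and 3 had no row. Members were left out of lists. Named genes were the members, Cdk6, up to 3 genes per list with the smallest edgeR p, and the 5 genes most like Mxd4 and Myc. Some genes that this rule or the marker lists would name are not reported here. Nolc1, Ccnd2, H19, Bhlhe41 and Id2 were named after their values were seen.

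Deviations from the group mean correlated at 0.33, 0.64 and 0.46 between KO and WT libraries of number 1, 2 and 3, above the criterion of 0.1, so the fit with a replicate block is given in the closing section. Unmatched numbers reached 0.36 (KO1 with WT3) and 0.41 (KO3 with WT1), so numbers 1 and 3 were not told apart by this check. No label ties a number to a shared culture.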

Additional observations from a re-analysis of the deposited data

How the results depend on the processing

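The log2 fold change of Mxd4 lay between 1.66 and 2.12 over 17 alternatives, a direction that the choice of the network fixes. No alternative gave another member an adjusted p under 0.05. The number of genes past the test was 0 in edgeR and limma-voom under every setting, and 218 in DESeq2. DESeq2, chosen for this after the data were seen, called 684 without KO2, 277 without WT2 and 340 without both. Its count among the 9 members other than Mxd4 was 0 in these 4 fits. Max turned to 0.00799 with library totals alone, to 0.000558 without KO2 and WT2 and to 0.00308 in DESeq2 without KO2, and leaving out single libraries gave -0.0438 to 0.00657. Mxi1 turned to 0.0649 without KO2 and WT2, to 0.0961 in DESeq2 without KO2 and to 0.0639 in DESeq2 without both, and ran from -0.35 to 0.10 over single libraries left out. For Mxi1 the value without KO2 shows that this library set the sign. Without KO3 the values of Myc and Mnt were 0.01 and -0.01. In the fit with a replicate block for the pairing, 0 genes passed, Mxd4 had a log2 fold change of 1.84, and no call changed. The list of genes repressed by MYC had a median of -0.34 without KO2, of -0.28 in limma-voom and of -0.21 with the block, against 0.36, and the E-box factor list of -0.13 in limma-voom and with the block, against 0.12. The cause was not tested.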
